A study of Mus musculus with 24 samples.

Results

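A set of 10 genes, of 43629 in the deposited table, was followed across knockouts of DOT1L and its partners in mouse leukaemia cells: Tnfrsf9, Il2ra, Tslp, Stc1, Ddx4, C2cd4b, Cbr2, Abcb4, Parm1 and Col4a1. They were chosen by their fall in the deposited counts, which was strong in the DOT1L or the MLLT1 knockout, with no stated threshold. Their values in those contrasts are therefore a description without a test. All 10 were found by symbol, and all 10 passed the filter on low counts, which left 10578 genes.

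RNA was sequenced from acute myeloid leukaemia cells of the line MLLAF9, named for the MLL-AF9 fusion, and all groups express Cas9. The sample descriptions also carry the tag YFP. Every group received guide RNA by lentivirus (multiplicity of infection 0.3), was selected with 2 ug/ml puromycin for 72 hours from 48 hours after transduction, and was harvested on day 9. There are 8 groups of 3 libraries: a control with a non-targeting (NT) guide, a DOT1L knockout with a single guide in the labels, and MLLT10, MLLT1 and MLLT6 knockouts with 2 guides apiece. No cloning step is described. The labels are silent on whether replicates came from separate cultures, and the p-values cover only the spread of these libraries, which may be technical.

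Library totals ran from 2403044 to 7415397 counts. Correlation with the other libraries of the group was lowest in MLLT1 guide 1 replicate 1 (mean r = 0.943) and MLLT6 guide 1 replicate 3 (mean r = 0.950). Dot1l mRNA was lower in the DOT1L knockout (log2 fold change -0.71 ± 0.13, SE; edgeR adjusted p = 0.000189). Mllt10 and Mllt6 were lower in their own knockouts by values that did not pass (-0.76 ± 0.21, edgeR adjusted p = 0.139, and -0.90 ± 0.19, edgeR adjusted p = 0.496). Mllt1 mRNA did not decrease in the libraries labelled MLLT1 knockout, which held 34.95 to 69.3 counts per 1e6 counts of a library (CPM) against 21.8 to 41.2 in the control. Directions given for MLLT1 therefore rest on the label, and MLLT1 below means the libraries labelled MLLT1 knockout. All 10 myeloid markers examined were present in the control, where Mpo was highest.

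DOT1L methylates histone H3 within the bodies of transcribed genes, and MLL fusions such as MLL-AF9 recruit it to their target genes. MLLT10 (AF10) and MLLT6 (AF17) are related proteins that bind DOT1L, and MLLT1 (ENL) is a reader of acetylated histones found in DOT1L complexes and in complexes that promote transcript elongation. Among the 10 genes, Tnfrsf9 and Il2ra encode receptors best known from activated lymphocytes, Tslp a cytokine, Stc1 and Col4a1 secreted proteins, Parm1 and Abcb4 membrane proteins, and Ddx4, C2cd4b and Cbr2 proteins that act inside the cell.

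RefSeq's promoter windows (build GRCm38.p6) covered 8 of the 10 genes. Tslp and Stc1 had no entry. The sequences of 4 of them are printed because these genes show 4 different patterns over the knockouts: Tnfrsf9 was graded over DOT1L, MLLT1 and MLLT10, Il2ra was low with DOT1L and MLLT1, C2cd4b had like levels with MLLT1 and MLLT10, and Parm1 was low with DOT1L and MLLT10. Each run is the plus strand, which is the strand of all 4 genes, and reads 5′ to 3′ up to the base before the RefSeq start, or for Parm1 up to its first annotated exon. Capitals mark CpG dinucleotides, the sites of DNA methylation in mammals. The positions are chr4:150919905-150920154 for Tnfrsf9, chr2:11642542-11642791 for Il2ra, chr9:67759187-67759436 for C2cd4b and chr5:91517450-91517614 for Parm1.
Tnfrsf9: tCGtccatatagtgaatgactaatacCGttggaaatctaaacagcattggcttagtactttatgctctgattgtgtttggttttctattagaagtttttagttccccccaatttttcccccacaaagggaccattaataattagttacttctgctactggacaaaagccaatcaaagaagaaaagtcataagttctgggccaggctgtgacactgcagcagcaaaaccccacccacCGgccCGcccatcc
Il2ra: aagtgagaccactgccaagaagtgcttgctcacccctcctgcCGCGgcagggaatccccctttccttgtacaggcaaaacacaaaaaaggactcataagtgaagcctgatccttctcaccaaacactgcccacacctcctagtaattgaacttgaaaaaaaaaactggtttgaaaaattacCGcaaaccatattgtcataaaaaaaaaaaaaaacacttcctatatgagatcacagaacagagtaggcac
C2cd4b: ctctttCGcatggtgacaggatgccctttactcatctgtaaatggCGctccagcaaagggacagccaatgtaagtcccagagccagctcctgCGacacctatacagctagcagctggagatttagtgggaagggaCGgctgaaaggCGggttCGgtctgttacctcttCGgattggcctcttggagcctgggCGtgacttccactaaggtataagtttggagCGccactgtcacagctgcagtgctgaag
Parm1: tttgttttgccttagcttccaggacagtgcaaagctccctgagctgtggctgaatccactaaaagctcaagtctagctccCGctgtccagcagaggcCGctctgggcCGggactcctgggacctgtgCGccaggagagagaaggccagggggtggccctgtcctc
In the 250 bases before the start, Tnfrsf9 held 4 CpG, Il2ra 3, Cbr2 3, C2cd4b 9, Parm1 11, Abcb4 18, Ddx4 31 and Col4a1 31, against a median of 6 over 32851 windows. Low and high CpG counts were thus both represented among the lost genes. RefSeq gives Tnfrsf9 a second window, chr4:150927749-150927998, which also held 4 CpG and overlaps an exon of the gene in GENCODE M21. In that annotation the windows of Ddx4, Cbr2, Abcb4 and Parm1 also overlap exon sequence of their own genes. That of Col4a1 overlaps Col4a2, and that of C2cd4b overlaps M5C1000I18Rik. The 11 CpG of Parm1 are over all 250 bases, of which 165 are printed. Motif letters were searched on both strands, and the counts over the 8 genes take the first window of Tnfrsf9. CCAAT occurred in 5 of 8 (Tnfrsf9, Abcb4, Col4a1, C2cd4b and Ddx4) and in 33.8% of all windows. GGGNNNNNCC, a loose form of the NF-kB site, occurred in 4 of 8 (Il2ra, Parm1, Col4a1 and Cbr2) and in 45.8% of all windows. The letters TATAAA, TTCNNNGAA (STAT) and TGATTNAT (HOX-PBX) were in none of these 8 windows, against 12.4%, 7.02% and 2.82% of all windows. The second Tnfrsf9 window held 2 matches of GGGNNNNNCC and 1 of TTCNNNGAA, and none of the other 3. These motifs can overlap one another, and a match describes letters only. The first Tnfrsf9 window lies inside the longer gene model of GENCODE M21, upstream of the RefSeq start.

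Levels below are CPM after scaling of library sizes by the trimmed mean of M-values (TMM). Tnfrsf9 (ENSMUSG00000028965, mm10 chromosome 4, 150914562 to 150946102) encodes 4-1BB, a costimulatory receptor of the TNF receptor family that signals through TRAF proteins to NF-kB. It was the most abundant of the 10, at 437 ± 148 CPM per kb of exon in the control (SD, n = 3), and stood at the 99.2 percentile of tested genes in CPM. Tnfrsf9 was at 988, 1652 and 926.5 CPM in the control and at 0.743, 9.60 and 18.4 CPM in the DOT1L knockout. MLLT1-labelled libraries held from 31.3 to 134 CPM (median 63.3, n = 6), MLLT10 from 140 to 509 CPM (median 277, n = 6) and MLLT6 from 822 to 1640 CPM (median 1286, n = 6). The ranges of DOT1L, MLLT1, MLLT10 and control did not overlap in that order, and MLLT6 overlapped the control. As shares of the control mean these were 0.805%, 5.85%, 26.8% and 108%. Its fold change in the DOT1L knockout moved from -6.82 to -7.82 on the log2 scale without DOT1L replicate 3. Tnfrsf9 shares its locus with Camta1 on the other strand, and no strand setting of the counting is known here. Reads of overlapping genes therefore cannot be told apart. Camta1 itself was at 42.4 CPM in the control. In these bulk libraries fewer cells that express a gene and less RNA per cell cannot be told apart.

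**Figure D1:**
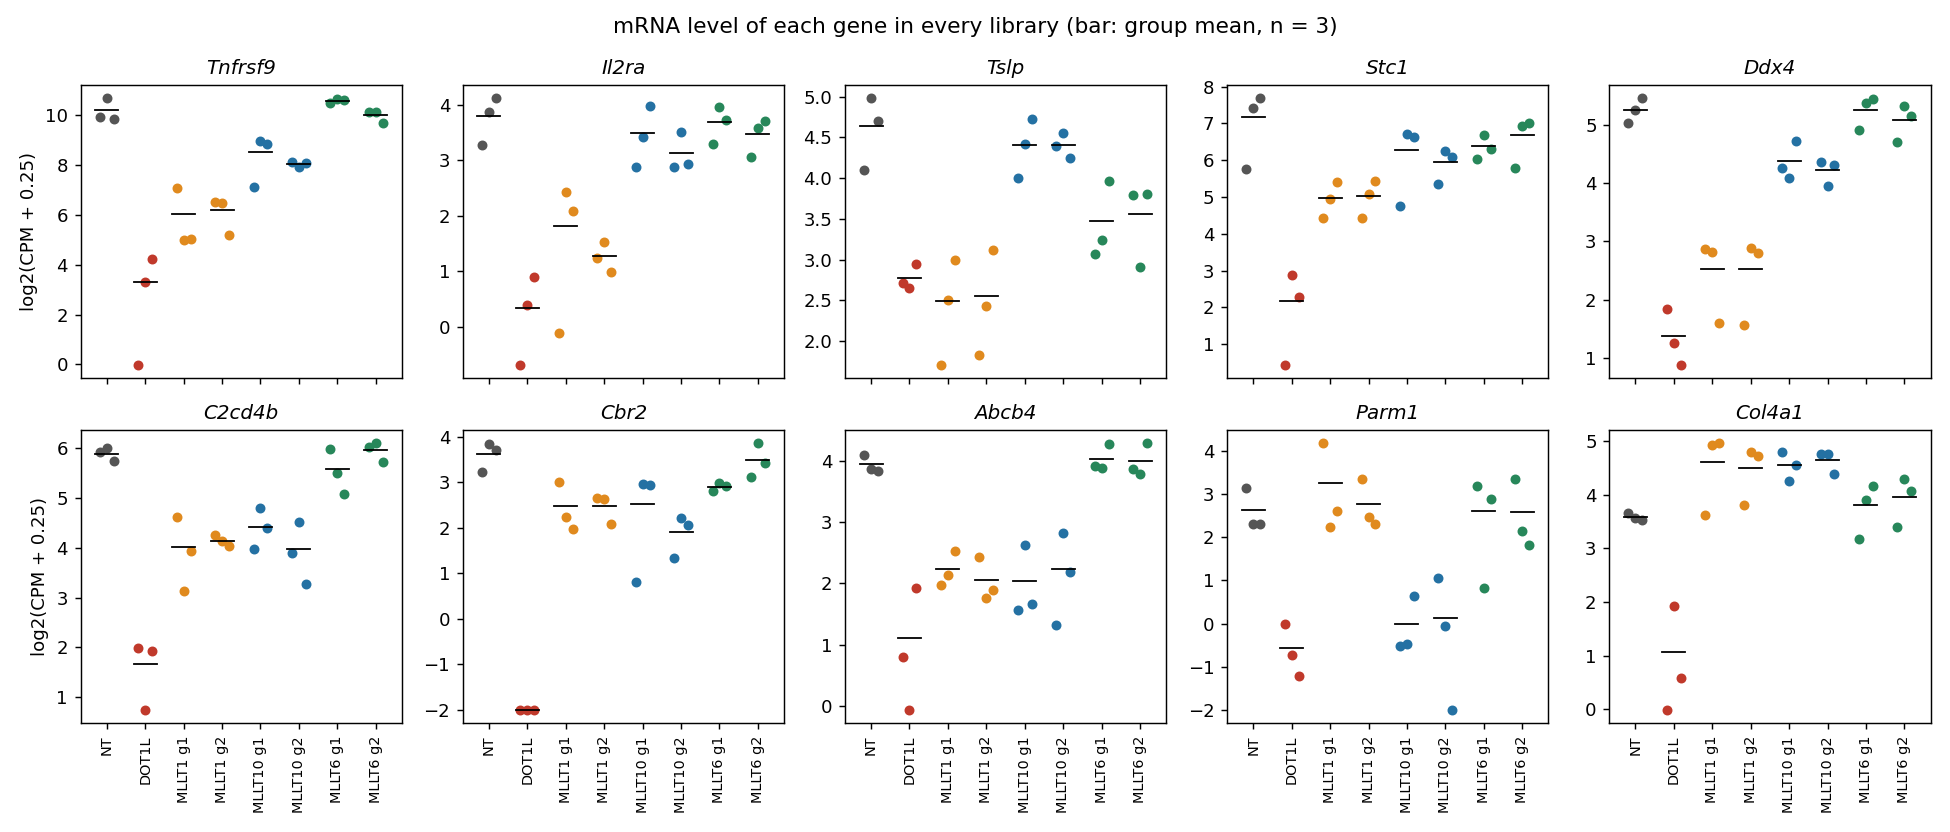
mRNA level of each of the 10 genes in all 24 libraries, as log2(CPM + 0.25), by group, with a bar at each mean of 3 libraries. NT is the non-targeting control, and g1 and g2 are the guides. Tnfrsf9 steps down from control to MLLT10, MLLT1 and DOT1L without overlap, Cbr2 has no count in the DOT1L knockout, and Parm1 and Col4a1 depart from the other genes in the libraries labelled MLLT1 knockout.

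Il2ra (ENSMUSG00000026770, chromosome 2, 11642807 to 11693193) encodes CD25, the alpha chain of the high-affinity IL-2 receptor. It was low in abundance, at 2.39 CPM per kb in the control. In the control Il2ra was at 9.48, 14.4 and 17.1 CPM, and the DOT1L knockout 0.372, 1.07 and 1.60 CPM. MLLT1-labelled libraries held 0.673 to 5.14 CPM (median 2.37), below every control library and overlapping the DOT1L knockout. MLLT10 (7.07 to 15.6 CPM, median 8.95) and MLLT6 (8.10 to 15.3 CPM, median 12.3) both overlapped the control. Il2ra was thus at 7.42% and 19.9% of the control mean with DOT1L and MLLT1, against 71.7% with MLLT10 and 86.2% with MLLT6. Without DOT1L replicate 3 its log2 fold change in the DOT1L knockout moved from -3.57 to -4.18.

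Tslp (ENSMUSG00000024379, chromosome 18, 32815383 to 32819797) encodes thymic stromal lymphopoietin, an epithelial cytokine that acts on a receptor of CRLF2 and IL7R. In the control Tslp was at 16.9, 31.3 and 25.7 CPM, and the DOT1L knockout 6.32, 6.04 and 7.48 CPM. MLLT1-labelled libraries held 3.03 to 8.43 CPM (median 5.28), MLLT6 7.28 to 15.3 CPM (median 11.4) and MLLT10 15.7 to 26.2 CPM (median 20.96). Tslp was the only one of the 10 with a mean lower in the MLLT1-labelled libraries (22.4% of control) than in the DOT1L knockout (26.9%), and the ranges of the pair overlapped. It was also the only one of the 10 with all 6 MLLT6 libraries below the lowest control library, at 45.6% of the control mean. A lincRNA on the other strand, 4930455D15Rik, overlaps it.

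Stc1 (ENSMUSG00000014813, chromosome 14, 69029238 to 69041804) encodes stanniocalcin-1, a secreted glycoprotein first known as a regulator of calcium in fish. Control levels of Stc1 were 54.0, 172 and 205 CPM, a wide spread, and the DOT1L knockout 1.11, 7.11 and 4.63 CPM. MLLT1-labelled libraries held 21.4 to 43.1 CPM (mean 32.04), MLLT10 26.6 to 105 CPM (median 71.7) and MLLT6 55.2 to 128 CPM (median 91.1). The DOT1L knockout lay below all other groups, and the ranges of the other neighbours in order of mean overlapped. Replicate 1 was the lowest library for Stc1 in 8 of 8 groups, the control included. The antisense gene Gm41192 overlaps Stc1.

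Ddx4 (ENSMUSG00000021758, chromosome 13, 112598333 to 112652475, minus strand) encodes the RNA helicase VASA, a marker of germ cells. In the control Ddx4 was at 32.6, 37.8 and 43.5 CPM, and the DOT1L knockout 3.34, 2.13 and 1.60 CPM. MLLT1-labelled libraries held 2.71 to 7.11 CPM (median 6.75), MLLT10 15.1 to 26.2 CPM (median 19.2) and MLLT6 25.8 to 42.9 CPM (median 37.4). Ddx4 was thus graded much like Tnfrsf9, at 6.21%, 14.6%, 51.3% and 94.0% of control, but the ranges of DOT1L and MLLT1 overlapped.

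C2cd4b (ENSMUSG00000091956, chromosome 9, 67759437 to 67760930) encodes a small protein with a C2 domain, a fold known for binding calcium and lipids. Control levels of C2cd4b were 61.0, 63.8 and 53.3 CPM, and the DOT1L knockout 3.72, 1.42 and 3.56 CPM. MLLT1-labelled libraries held 8.47 to 24.2 CPM (median 16.7), MLLT10 9.37 to 27.5 CPM (median 18.1) and MLLT6 33.8 to 68.3 CPM (median 57.99). MLLT1 and MLLT10 overlapped over most of their range and lay below the lowest MLLT6 library. The lincRNA M5C1000I18Rik on the other strand overlaps C2cd4b.

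Cbr2 (ENSMUSG00000025150, chromosome 11, 120729489 to 120732114, minus strand) encodes a carbonyl reductase best known from mouse lung. In the control Cbr2 was at 9.07, 14.1 and 12.8 CPM, 100 counts in all, and the DOT1L knockout held 0 counts in each of its 3 libraries. Against a floor of 3 counts over the DOT1L group, which covers counting error only, Cbr2 was at least 15.6-fold lower there than with MLLT10, at least 19.3-fold lower than with MLLT1 and at least 32.8-fold lower than with MLLT6. MLLT10 libraries held 1.51 to 7.51 CPM (median 4.17), MLLT1-labelled libraries 3.70 to 7.73 CPM (median 5.19) and MLLT6 6.71 to 14.2 CPM (median 8.06). MLLT10 and MLLT1 thus overlapped each other, and both lay below every control library.

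Abcb4 (ENSMUSG00000042476, chromosome 5, 8893717 to 8959231) encodes a transporter that moves phosphatidylcholine across membranes into bile. Control levels of Abcb4 were 16.9, 14.4 and 14 CPM, and the DOT1L knockout 1.49, 0.711 and 3.56 CPM. MLLT10 libraries held 2.26 to 6.85 CPM (median 3.61), MLLT1-labelled libraries 3.16 to 5.55 CPM (median 3.93) and MLLT6 13.5 to 19.2 CPM (median 14.6). Abcb4 was at nearly the same share of control with MLLT1 (27.8%) and MLLT10 (27.6%), and its DOT1L range overlapped both. Without DOT1L replicate 3 its log2 fold change in the DOT1L knockout moved from -2.79 to -3.75. The processed pseudogene Gm17936 lies within Abcb4.

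Parm1 (ENSMUSG00000034981, chromosome 5, 91517615 to 91626894) encodes a mucin-like membrane protein first described in prostate. It had the fewest counts of the 10, 402 over 24 libraries. In the control Parm1 was at 8.66, 4.69 and 4.67 CPM, and the DOT1L knockout 0.743, 0.355 and 0.178 CPM, 4 counts in all. MLLT10 libraries held 0 to 1.84 CPM (median 0.592) and MLLT6 1.53 to 9.93 CPM (median 5.65). MLLT1-labelled libraries held 4.45 to 17.8 CPM (median 5.56), so Parm1 was at 7.09% and 13.3% of control with DOT1L and MLLT10 but at 133% with MLLT1. That last share rested on MLLT1 guide 1 replicate 1, the library least like its group: the log2 fold change was 0.37 ± 0.55 with it and -0.05 without it.

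Col4a1 (ENSMUSG00000031502, chromosome 8, 11198423 to 11312826, minus strand) encodes a chain of collagen IV, the network collagen of basement membranes. Control levels of Col4a1 were 12.4, 11.6 and 11.3 CPM, and the DOT1L knockout 0.743, 3.56 and 1.25 CPM. MLLT10 libraries held 18.8 to 27.5 CPM (median 25.1), all 6 above every control library. MLLT1-labelled libraries held 12.1 to 30.8 CPM (median 26.8), 5 of 6 above the control, and MLLT6 8.84 to 19.4 CPM (median 15.6). Col4a1 was therefore at 15.8% of control with DOT1L and at 199%, 205% and 124% with MLLT1, MLLT10 and MLLT6. Without DOT1L replicate 2 its log2 fold change in the DOT1L knockout moved from -2.72 to -3.42. Its start overlaps that of Col4a2, its partner chain on the other strand, and Gm15418 and Gm44716 also lie on its locus.

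Set side by side, the median of the 10 shares of control was 6.65% with DOT1L, 25.1% with MLLT1, 42.9% with MLLT10 and 93.1% with MLLT6. All 3 DOT1L libraries lay below the lowest control library for 10 of 10 genes, as they did for 18.6% of all tested genes. All 6 MLLT1-labelled libraries did so for 8 of 10 (4.3% of all tested genes), the exceptions being Parm1 and Col4a1. These counts follow from how the genes were chosen. All 6 MLLT10 libraries lay below the control for 6 of 10 (Tnfrsf9, Ddx4, C2cd4b, Cbr2, Abcb4 and Parm1, against 2.93% of all tested genes) and above it for Col4a1 (2.41% of all). All 6 MLLT6 libraries lay below the control for Tslp alone of the 10 (1.34% of all tested genes).

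**Figure D2:**
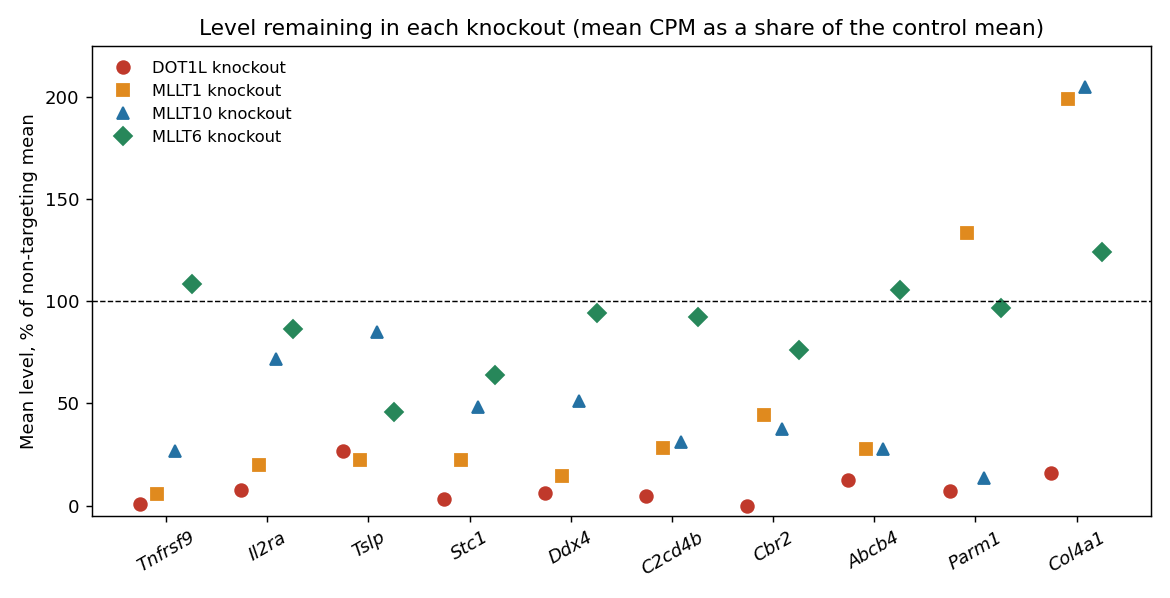
Mean CPM of each gene in each knockout as a percent of the mean of the 3 control libraries (dashed line at 100). Means are of 3 DOT1L libraries and 6 libraries for each other knockout. DOT1L points lie at 26.9% or below, MLLT6 points lie between 45.6% and 124%, and Parm1 and Col4a1 exceed 100% in the libraries labelled MLLT1 knockout.

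The DOT1L and MLLT1 values of the 10 genes lay at different distances from each other. Cbr2, with no count in the DOT1L knockout, has only the bound of at least 19.3-fold given with its levels. For the other genes the distance was widest for Parm1 and Col4a1. The log2 fold change of DOT1L against MLLT1 was -4.27 ± 0.84 (SE) for Parm1 and -3.73 ± 0.43 for Col4a1. It was -2.87 ± 0.56 for Stc1, -2.72 ± 0.57 for Tnfrsf9 and -2.44 ± 0.38 for C2cd4b. Ddx4 (-1.34 ± 0.37), Il2ra (-1.29 ± 0.51) and Abcb4 (-0.93 ± 0.42) were closer, and Tslp was at 0.27 ± 0.32. These contrasts chose the genes, so they are given without a test.

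The comparison of MLLT10 with MLLT6 sets against each other no library of the contrasts that chose the genes, although the low-count filter and the spread were estimated over all 8 groups. In it, 5 of the 10 were lower with MLLT10 and none was higher, against 0.35% of all tested genes called lower and 0.416% called higher (edgeR's quasi-likelihood test, Benjamini-Hochberg adjusted p under 0.05 over all genes). On the log2 scale Abcb4 was at -1.92 ± 0.28 (SE, edgeR adjusted p = 0.000534), with all 6 MLLT10 libraries below all 6 MLLT6 libraries. C2cd4b was at -1.54 ± 0.23 (edgeR adjusted p = 0.000615), and its 6 MLLT10 libraries also lay below every MLLT6 library. Tnfrsf9, the 4-1BB receptor, was at -2.00 ± 0.38 (edgeR adjusted p = 0.00848), again without overlap. Parm1 was at -2.79 ± 0.53 (edgeR adjusted p = 0.00865), the largest difference of the 10, and its ranges overlapped through 1 MLLT6 library of 1.53 CPM. Ddx4, the germ cell helicase, was at -0.89 ± 0.21 (edgeR adjusted p = 0.0397), with ranges that overlapped between 25.8 and 26.2 CPM. The share of all tested genes whose MLLT10 and MLLT6 libraries do not overlap was not computed. Such separation, here and below, is therefore a description only.

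The same 5 genes were called when the MLLT10 and MLLT6 groups were fitted alone. The call for Ddx4 was lost when any of 9 of the 12 libraries was left out, with adjusted p from 0.0786 to 0.136 by edgeR. Those were MLLT10 guide 1 replicates 1 and 2, MLLT10 guide 2 replicates 1, 2 and 3, MLLT6 guide 1 replicates 2 and 3, and MLLT6 guide 2 replicates 2 and 3. Without both libraries that stood apart from their groups it was 0.0847. The other 4 calls held in each of the 18 alternatives run. The remaining genes did not pass: Cbr2 was at -1.05 ± 0.31 (edgeR adjusted p = 0.162), Stc1 at -0.42 ± 0.33 (0.686) and Il2ra at -0.29 ± 0.28 (0.749). Tslp and Col4a1 had the opposite sign. Tslp was at 0.88 ± 0.24 (edgeR adjusted p = 0.0933), with all 6 MLLT10 libraries above all 6 MLLT6 libraries. Tslp was called with the replicate number as a block (edgeR adjusted p = 0.0214), by DESeq2 (0.0238), with no filter on low counts (0.0103 by edgeR) and without both libraries that stood apart (0.0282 by edgeR), and its adjusted p ranged from 0.0103 to 0.295 over the alternatives. Col4a1 was at 0.71 ± 0.25 (edgeR adjusted p = 0.255, and 0.0438 with no filter). Over all 10 the median was -0.97, against 0.0025 over all tested genes.

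**Figure D3:**
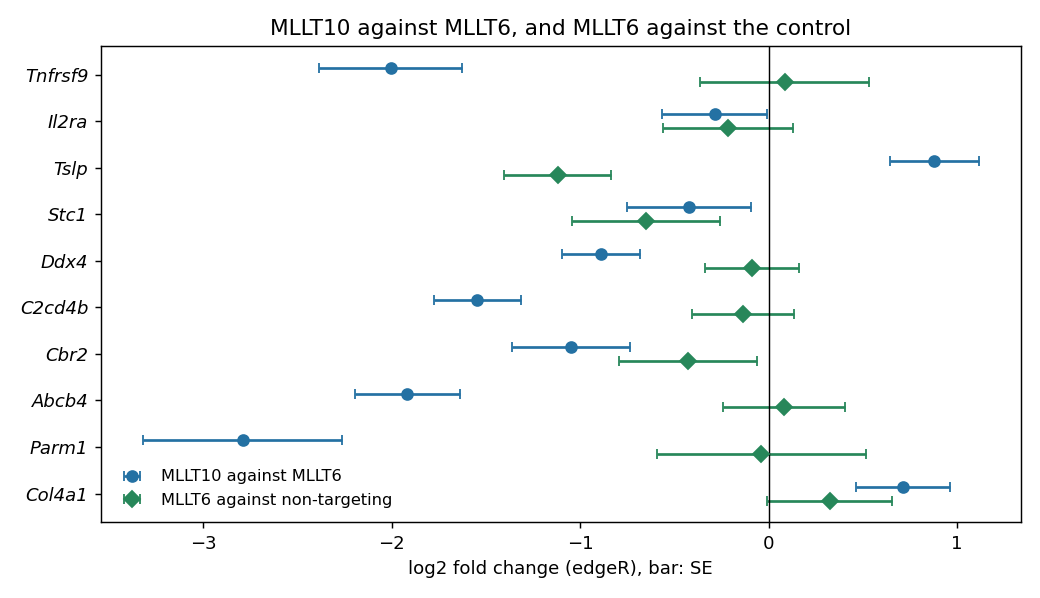
edgeR log2 fold changes with SE for MLLT10 against MLLT6 (blue circles) and for MLLT6 against the control (green diamonds), 6 libraries a knockout and 3 controls. Abcb4, C2cd4b, Tnfrsf9, Parm1 and Ddx4 lie left of 0 in the first comparison and near 0 in the second, while Tslp lies right of 0 in the first and left of it in the second.

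Against the control, whose libraries also served to choose the genes, 4 of the 10 were called lower with MLLT10 and none higher, where 0.236% of all tested genes were called in each direction. C2cd4b was at -1.68 ± 0.27 (edgeR adjusted p = 0.00191), Abcb4 at -1.83 ± 0.33 (0.00687), Parm1 at -2.83 ± 0.62 (0.0408) and Tnfrsf9 at -1.92 ± 0.43 (0.0449). C2cd4b and Abcb4 kept their calls whichever single library was left out. The call for Tnfrsf9 was lost without any 1 control library (edgeR adjusted p = 0.0543, 0.295 and 0.104 for replicates 1, 2 and 3) and without any MLLT10 library but guide 1 replicate 2 (0.0614 to 0.0975). The call for Parm1 was lost without any 1 control library (edgeR adjusted p = 0.128, 0.125 and 0.112) and without MLLT10 guide 1 replicates 1 or 2 or guide 2 replicates 2 or 3 (0.0623 to 0.112). Cbr2 (-1.48 ± 0.37) and Ddx4 (-0.98 ± 0.25) were both at an edgeR adjusted p of 0.09. Col4a1, at 1.04 ± 0.33, did not pass either (edgeR adjusted p = 0.229).

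With MLLT6 none of the 10 was called against the control, and none of the 10578 tested genes was (0% called, edgeR, with 727 genes at an unadjusted p under 0.05 and 0 called by DESeq2). Tslp was the furthest from 0, at -1.12 ± 0.28 (edgeR adjusted p = 0.699). It was the only one of the 10 with an unadjusted p under 0.05, and with no filter on low counts its adjusted p by edgeR was 0.0162. Its range over the alternatives was 0.0162 to 1. The median over the 10 genes was -0.11, against -0.0038 over all tested genes.

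Differences between the guides of a pair did not pass the test. None of the 10 genes was called between the guides of MLLT10, of MLLT1 or of MLLT6, and 0% of all tested genes were called by edgeR in any of the 3 comparisons. Unadjusted p was under 0.05 for 182, 222 and 983 of all tested genes and for none of the 10, and DESeq2 called 0, 0 and 7 of all genes. The largest absolute log2 difference between guides was 0.63 for MLLT10 (Parm1), 0.66 for MLLT1 (Il2ra) and 0.61 for MLLT6 (Cbr2). With 3 libraries a guide these values carry SEs of 0.89, 0.48 and 0.43, so differences of that size were not resolved.

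Libraries with the same replicate number stood in like places for some of these genes. Besides Stc1, replicate 1 was the lowest library of its group for Il2ra in 7 of 8 groups. For Parm1 it was the highest in 7 of 8. It was the lowest for Tslp, Cbr2 and Col4a1 in 5 of 8, but the highest for Cbr2 in 2 and for Col4a1 in 3. The share of all tested genes with such a pattern was not computed. The labels tie no day or culture to the number.

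Over the 24 libraries, log2 CPM of the 10 genes varied together to different degrees. This is a description across libraries that share controls and knockout groups, and it carries no test. Pearson's r was highest for C2cd4b and Cbr2 (0.90), Tnfrsf9 and Ddx4 (0.89), Stc1 and Cbr2 (0.89) and Tnfrsf9 and C2cd4b (0.88). It was lowest for Tslp and Parm1 (-0.31) and was 0.03 for Il2ra and Parm1. Both of the lowest values thus involved Parm1.

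Among all tested genes, those most like Tnfrsf9 over the 24 libraries were Ctla2a, an inhibitor of cathepsins, with r = 0.95, Hbb-bt, a beta-globin, with 0.95, P4hb, a protein disulphide isomerase, with 0.93, Ero1l, an oxidase of the endoplasmic reticulum, with 0.93, and Smagp, a small membrane glycoprotein, with 0.92. Ctla2a stood at 245 ± 12.6 CPM in the control (SD, n = 3) and at 19.8, 67.5, 125 and 249 CPM with DOT1L, MLLT1, MLLT10 and MLLT6, the same order as Tnfrsf9. The genes named here were picked by likeness over these same 24 libraries, so a shared order describes that choice and carries no test. Hbb-bt, whose reads can be shared with its near-identical paralogs, was at 77.4 ± 14.02 CPM in the control and 2.04 CPM with DOT1L, and it was also the gene most like Ddx4 (r = 0.93). P4hb stood at 818 CPM with DOT1L and 1305 ± 34.7 CPM in the control, so likeness of pattern went with very different depths of loss. The gene most like Stc1 was H2-Ob, a class II chain (r = 0.96). Muc13 was most like C2cd4b (0.94), Ly6e most like Cbr2 (0.95), Chpf most like Tslp (0.84) and C2cd4b most like Abcb4 (0.88). Lpxn, the adaptor leupaxin, was most like Parm1 (0.85), at 76.3 CPM in the control, 18.99 with DOT1L, 22.9 with MLLT10 and 70.8 with MLLT1. Wfdc17 was most like Col4a1 (0.93), at 17.8 CPM in the control, 2.99 with DOT1L, 22.1 with MLLT1 and 24.4 with MLLT10.

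The families and pathways around the 10 genes were examined from lists that do not hold the 10 themselves. The edgeR test called 10.7% of tested genes lower and 11.2% higher in the DOT1L knockout, and 1.61% lower and 0.974% higher in the MLLT1-labelled libraries. Of 24 other TNF receptors, 12 passed the filter, and in the DOT1L knockout 2 fell and 4 rose (median 0.64 on the log2 scale, against 0.0067 over all tested genes). Tnfrsf18, the costimulatory receptor GITR, fell to a mean of 7.63 CPM with DOT1L from 21.7 in the control, by 1.56 ± 0.38 on the log2 scale (edgeR adjusted p = 0.00401). Tnfrsf1b and Tnfrsf1a, the receptors for TNF itself, rose by 1.32 ± 0.16 and 0.95 ± 0.18, from 40.8 to 102 CPM and from 103 to 198 CPM (edgeR adjusted p = 1.27e-06 and 0.000376). Tnfrsf23 (2.10 ± 0.44) and Tnfrsf26 (1.26 ± 0.29), neighbouring members known in the mouse, also rose (edgeR adjusted p = 0.00102 and 0.00281), and the sixth call, of Tnfrsf13b (-0.36 ± 0.13, edgeR adjusted p = 0.0451), was lost without any of 5 of the 6 libraries, control replicate 1 being the exception.

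Tnfrsf18 was also the only other TNF receptor called between MLLT10 and MLLT6. It held 4.53 to 13.5 CPM with MLLT10 (median 8.97) and 11.95 to 27.4 CPM with MLLT6 (median 20.3). Its log2 difference was -1.22 ± 0.26 (edgeR adjusted p = 0.0213), and this call was lost without MLLT10 guide 2 replicates 1 or 2, MLLT6 guide 1 replicates 1 or 3 or MLLT6 guide 2 replicate 2 (0.0506 to 0.0841). Against the control, MLLT10 gave -1.36 ± 0.30 (edgeR adjusted p = 0.0449, and up to 0.319 when a library was left out). No TNF receptor of the list was called with MLLT1 or MLLT6 against the control by this fit, while 1 was called lower with MLLT1 with no filter, by DESeq2 and with the replicate block.

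Of 17 TNF ligands, 3 passed the filter (Tnf, Tnfsf12 and Tnfsf14), and Tnfsf9, the ligand of 4-1BB, did not. Tnfsf14 rose with DOT1L by 1.44 ± 0.40 (edgeR adjusted p = 0.0111, and 0.0523 without control replicate 3). Of 24 genes of the NF-kB pathway, 19 passed the filter, and with DOT1L 2 fell and 3 rose (median -0.02). These counts are close to the shares over all tested genes, 10.7% lower and 11.2% higher. Traf1, the adaptor that binds 4-1BB, fell to 3 counts from 49, a ratio of 22.2 between control and knockout (exact 95% interval 7.15 to 111, counting error only; edgeR adjusted p = 0.000143). Nfkbia, the inhibitor IkB-alpha and itself an NF-kB target, rose from 94.9 to 475 CPM (2.32 ± 0.19, edgeR adjusted p = 2.92e-09). Traf3, which restrains the alternative pathway, rose by 1.12 ± 0.21 (edgeR adjusted p = 0.000392). Nfkbid rose by 1.06 ± 0.32 (edgeR adjusted p = 0.0172), a call lost without control replicates 2 or 3 or DOT1L replicates 2 or 3, and Nfkbiz was at -1.34 ± 0.48 (0.0458), a call lost without any library but DOT1L replicate 3. No gene of the NF-kB list was called with MLLT1, MLLT10 or MLLT6, nor between MLLT10 and MLLT6, by this fit. Traf1 was nevertheless lower in each: -1.04 ± 0.43 with MLLT1, -1.56 ± 0.44 with MLLT10 and -1.75 ± 0.46 with MLLT6. Its edgeR adjusted p was 0.242, 0.147 and 0.699. DESeq2 called 1 lower with MLLT10, and 1 was called higher with MLLT1 without control replicate 1.

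The list of IL-2 and TSLP receptor chains with JAK-STAT5 genes held 18, of which 14 passed the filter. With MLLT1, 3 fell and none rose: Socs3 by 1.49 ± 0.32, Cish by 0.84 ± 0.18 and Socs2 by 0.55 ± 0.13 on the log2 scale, all feedback inhibitors of cytokine signalling (edgeR adjusted p = 0.011, 0.0126 and 0.0248). These 3 calls were all lost without control replicate 2 or 3, and that of Socs2 also without MLLT1 guide 1 replicate 3 or guide 2 replicate 1. With DOT1L, Socs2 fell by 0.89 ± 0.16 (edgeR adjusted p = 0.000186), while Socs3 was at 0.43 ± 0.36 and Cish at -0.07 ± 0.21. Crlf2, a chain of the TSLP receptor, was at -0.53 ± 0.19 with DOT1L (edgeR adjusted p = 0.0468), a call lost whichever library was left out. The list's median was -0.10 with DOT1L and -0.46 with MLLT1.

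Of 20 other germ cell genes, 2 passed the filter (Tdrd7 and Dnd1) and neither was called in any comparison. Of 27 genes of basement membrane and collagen processing, 7 passed, and 2 fell with DOT1L: Lamc1, a laminin chain, by 2.26 ± 0.56 (edgeR adjusted p = 0.00491) and P4ha1, a collagen prolyl hydroxylase, by 1.05 ± 0.36 (0.0412, a call lost without control replicates 2 or 3 or DOT1L replicates 1 or 2). None was called with MLLT1, MLLT10 or MLLT6. Of 16 relatives of Cbr2, Abcb4, Stc1 and C2cd4b, 8 passed, and with DOT1L 3 fell and 1 rose. Stc2, the paralog of Stc1, fell by 0.83 ± 0.17 (edgeR adjusted p = 0.000942). C2cd4a, the paralog of C2cd4b, fell by 2.70 ± 0.60 (0.00171). Dcxr, a reductase of the family of Cbr2, fell by 0.80 ± 0.25 (0.0242, lost without control replicates 1 or 2 or DOT1L replicates 2 or 3). Abcb10 was at 0.64 ± 0.22 (0.0387, lost without any library but control replicate 1). No relative was called with MLLT1 or MLLT10 by this fit, and 1 was called lower with MLLT10 with no filter.

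The genes that flank the 10 on the chromosome were examined in the same fit. Of the 20 nearest tested genes, 1 on each side of each, 7 fell and 2 rose with DOT1L (median log2 fold change -0.40). Their distances ran from 0 bp (Camta1 and Col4a2, which overlap) to 1206268 bp (Abhd13). Dcxr, 2208 bp from Cbr2, and C2cd4a are counted both here and among the relatives above. Over all tested genes, 10.7% were called lower and 11.2% higher with DOT1L. None of the 20 was called with MLLT1, MLLT10 or MLLT6 or between MLLT10 and MLLT6. C2cd4a, 69559 bp from C2cd4b, was at 0.02 ± 0.47 with MLLT1, where C2cd4b was at -1.86 ± 0.27. Il6st, the shared signalling chain of the IL-6 family, lies 88247 bp from Ddx4 and fell with DOT1L by 2.60 ± 0.50 (edgeR adjusted p = 0.000461). On the other side of Ddx4, Slc38a9 fell by 0.76 ± 0.20 (edgeR adjusted p = 0.00666). Park7, which starts on the other strand 125 bp from the longer GENCODE M21 model of Tnfrsf9, was at -0.45 ± 0.16 (edgeR adjusted p = 0.0401, lost without any library but control replicate 3), where Tnfrsf9 was at -6.82 ± 0.69. The RefSeq starts of Tnfrsf9 lie further from Park7, after chr4:150920154 and chr4:150927998. Of the other flanking calls, that of Abhd13, far from Col4a1, was lost without any 1 control library or DOT1L replicates 2 or 3. Il15ra, 12097 bp from Il2ra, was at -0.88 ± 0.48 and did not pass (edgeR adjusted p = 0.209). Col4a2 was at 1.48 ± 0.66 with DOT1L (edgeR adjusted p = 0.119), against -2.72 ± 0.48 for Col4a1.

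**Figure D4:**
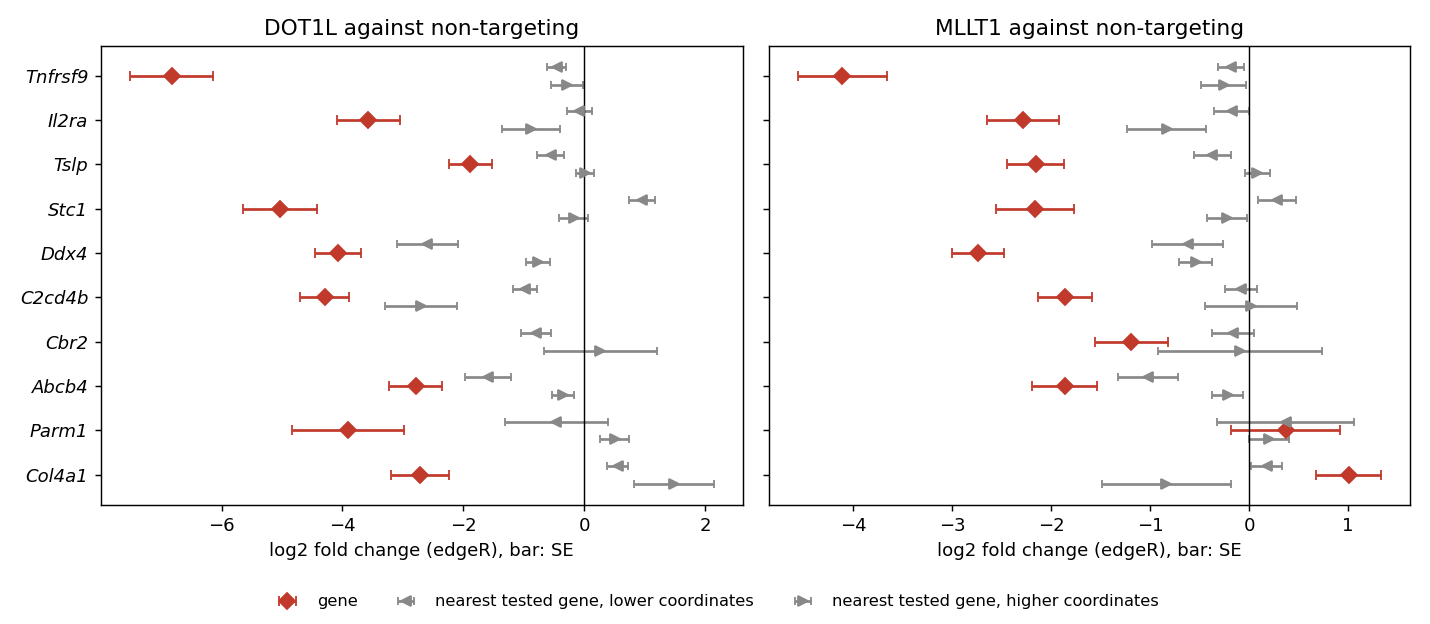
edgeR log2 fold changes with SE of each gene (red diamonds) and of the nearest tested gene on each side (grey triangles), with DOT1L on the left and MLLT1 on the right, against the control. Cbr2 has no count with DOT1L and is left out of that panel. The median of the 20 flanking genes was -0.40 with DOT1L, where 7 were called lower and 2 higher, and -0.18 with MLLT1. C2cd4a, at higher coordinates than C2cd4b, and Il6st, at lower coordinates than Ddx4, have the lowest values of the flanking genes in the DOT1L panel.

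Markers of other cells were summed in each library, since receptors such as 4-1BB and CD25 are best known from lymphocytes. Of 14 T and NK cell markers, 11 were at 0 in the control, Cd3e, Cd3g, Cd2, Zap70 and Ncr1 among them, and the sum was 8.94 to 17.3 CPM in the control, 5.69 to 10.3 with DOT1L, 8.43 to 16.1 with MLLT1, 10.04 to 24.01 with MLLT10 and 14.1 to 20.1 with MLLT6, most of it Lck. Of 6 B cell markers, 5 were at 0 in every group. All 7 endothelial markers were under 1 CPM in every group, and all 5 epithelial markers were at 0 in the control and with DOT1L. Of 9 markers of fibroblasts, Col3a1, Dcn, Lum, Pdgfra and Postn were at 0 throughout, and the sum, mostly Thy1, was 89.4 to 220.5 CPM in the control, 74.7 to 88.4 with DOT1L, 42.4 to 73.6 with MLLT1, 133 to 230.5 with MLLT10 and 115 to 268.5 with MLLT6. Col1a1, a fibrillar collagen chain of this list, went the other way from Thy1 with DOT1L, where it held 14.6 to 19.96 CPM against 0 to 0.938 CPM in the control and at most 1.505 CPM in the other knockouts. Mast cell and basophil markers, of which Fcer1a and Prss34 were at 0 throughout, summed to 281 to 350 CPM in the control, 212 to 242 with DOT1L, 207 to 262 with MLLT1, 208 to 228 with MLLT10 and 308 to 425 with MLLT6. Hdc was the largest part of these sums, and the single markers differed. From control to DOT1L, mean CPM went from 74.4 to 14.7 for Gata2, 44.7 to 15.1 for Mcpt8 and 11.6 to 0.663 for Cpa3. Hdc (167 to 183) and Ms4a2 (6.14 to 9.22) did not fall. With MLLT1, Hdc was at 104, Gata2 at 79.4, Mcpt8 at 44.97, Cpa3 at 6.86 and Ms4a2 at 7.43 CPM.

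Neutrophil and myeloid markers also differed between the groups. All 7 neutrophil markers (S100a8, S100a9, Camp, Ltf, Ngp, Lcn2 and Cebpe) passed the filter, and their sum was 321 to 448 CPM in the control, 311 to 770 CPM with MLLT6, 781 to 1125 CPM with MLLT10, 1912 to 2413 CPM with MLLT1 and 91240 to 105000 CPM with DOT1L. The 10 myeloid markers summed to 869 to 1089 CPM in the control, 943 to 1202 with MLLT6, 1212 to 1450 with MLLT1, 1288 to 1782 with MLLT10 and 6029 to 7042 with DOT1L. Of these, Lyz2, the lysozyme of macrophages and granulocytes, had a mean of 58.9 CPM in the control and 2887 CPM with DOT1L. Mpo went from 341 to 2612 CPM, and Lyz2 and Mpo made up most of the DOT1L sum. Smaller markers rose as well, such as Itgam (15.04 to 119 CPM) and Spi1 (127 to 330 CPM). Ptprc (96.55 and 94.5 CPM) and Cd33 (35.4 and 35.8 CPM) hardly differed between control and DOT1L. Means of Il2ra, Stc1, Ddx4 and C2cd4b fell in the order control, MLLT6, MLLT10, MLLT1 and DOT1L, in which the neutrophil sums rose. The neutrophil sums of control and MLLT6 overlapped. The other genes departed from that order: Parm1 and Col4a1 were above the control mean with MLLT1, and Col4a1 also with MLLT10. The mean of Tslp was lower with MLLT6 (11.2 CPM) than with MLLT10 (20.96), and lower with MLLT1 (5.50) than with DOT1L (6.62). Means of Cbr2 and Abcb4 were lower with MLLT10 than with MLLT1, and those of Tnfrsf9, Abcb4 and Col4a1 were above the control with MLLT6, with ranges that overlapped. The part of these markers, and of those of mast cells and stroma, in the changes of the 10 genes was not tested.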

How the data were processed

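The authors deposited raw counts per gene for 24 libraries in a single table. Per the submitters' processing notes, bcl2fastq, HISAT2, HTSeq and DESeq2 were used with build mm10. For versions, annotation and strand setting, nothing is given in the sources used here. Groups and replicate numbers came from the sample titles. Symbols and positions came from GENCODE M21 (GRCm38), which named 42462 of 43629 identifiers.

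The counts were tested with edgeR 4.0.16 in R 4.3.3 (TMM scaling, filterByExpr, 1 quasi-likelihood fit of all 8 groups, Benjamini-Hochberg over 10578 genes, calls at an adjusted p under 0.05), checked on simulated data. Knockouts with 2 guides enter as the mean of both. The SE of a log2 fold change is its size over the square root of F, and is approximate. Likeness is Pearson's r of log2 CPM (prior count 2). Alternatives were no low-count filter, DESeq2 1.42.0 size factors or test, the replicate number as a block, the compared groups alone, and each library left out. Leaving out the 2 libraries least like their groups was added after seeing the data. The genes and lists were chosen with earlier results of these data known. Named genes were the 10, the nearest tested gene on each side, the 5 most like Tnfrsf9 and the 1 most like each other gene (that for Il2ra is not reported here), and up to 4 called genes per list by adjusted p; further called genes were named after their values were seen. With 3 libraries a group, their number limits precision. Figures used Python 3.11.15 and matplotlib 3.10.9.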

Additional observations from a re-analysis of the deposited data

Results flagged for a closer look

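Col4a1 lay on opposite sides of the control in different knockouts. All 6 MLLT10 libraries lay above every control library, with a mean of 24.03 CPM, and all 3 DOT1L libraries lay below every control library, with a mean of 1.85 CPM against 11.7 CPM in the control. The difference between those effects was not tested, because the DOT1L contrast chose the gene.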

How the results depend on the processing

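For MLLT10 against MLLT6, the 5 calls became 8 with no filter on low counts (6 lower, 2 higher), and 4 to 5 were made when a library was left out. For MLLT10 against the control, the 4 calls became 8 with no filter and 2 when the compared groups were fitted alone (Tnfrsf9 and C2cd4b, with Abcb4 at an edgeR adjusted p of 0.0558), and they were 2 to 3 when a library was left out. The 2 that then remained were C2cd4b and Abcb4, without any 1 control library or without MLLT10 guide 1 replicate 1 or guide 2 replicates 2 or 3. For MLLT6 against the control, the count went from 0 to 1 (Tslp) with no filter. The cause of these shifts was not tested. None of the 10 was called between guides in any alternative.

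Over all genes, calls for MLLT10 against MLLT6 went from 81 to 272 with no filter and 155 by DESeq2. For MLLT10 against the control they went from 50 to 192 with no filter, 105 by DESeq2, 28 in the groups alone, 79 with the replicate block and 15 without control replicate 2 or 3. For MLLT6 against the control they went from 0 to 80 with no filter. Between the guides of MLLT10, MLLT1 and MLLT6 they went from 0 to 16, 21 and 67 with no filter, and were at most 1 with a library left out.

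In the main fit replicate numbers were not taken to pair the libraries, and the labels tie no day or culture to the number. Deviations from the group means correlated over 0.1 at each number in 6 of 28 pairs of groups. However, 19 of 24 libraries were closest to their own number, more than an even spread over 3 numbers would give. Libraries of a number thus shared part of their deviation, which the main fit leaves out. With the replicate number as a block, 6 of the 10 were called for MLLT10 against MLLT6 (Tslp was added, edgeR adjusted p = 0.0214) and 5 for MLLT10 against the control (Stc1 was added). By the DESeq2 test the counts were also 6 and 5, with Tnfrsf9 against the control at an adjusted p of 0.0787.

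Directions turned only in small differences. With a library left out, MLLT6 against the control ranged from -0.062 to 0.39 for Tnfrsf9, from -0.35 to 0.30 for Parm1, from -0.19 to 0.025 for Ddx4 and from -0.0071 to 0.16 for Abcb4. Parm1 in MLLT1 against the control ranged from -0.051 to 0.71, and was at -0.049 without both libraries that stood apart. Totals of 2403044 to 7415397 counts left Parm1 with 4 counts in the DOT1L knockout and Il2ra with 13, so fold changes there are coarse.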
